A study of Mus musculus with 4 samples.

Results

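BCL6 peaks near genes for zinc finger transcription factors are described here. They are all peaks of the deposited BCL6 lists whose nearest gene, by the authors' annotation, has a name that starts with Zfp and a digit, or with Zbtb, Zfhx or Klf (Klf15 left out), and whose distance to that gene's start site is at most 50 kb. There were 17 such peaks among the 1785 of the inguinal list and 41 among the 3956 of the perigonadal list, 58 of 5741 in all. They lay at 47 genes. The choice used gene names and distances only, not peak scores.

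BCL6 was mapped by chromatin immunoprecipitation and sequencing in C57BL/6 mice of the genotype Adipoq-Cre;Sun1-sfGFP-myc. Adipoq-Cre acts in adipocytes and switches on a tagged nuclear envelope protein there, so that adipocyte nuclei could be pulled out of minced fat through the myc tag. Both depots, inguinal (subcutaneous) and perigonadal (visceral) fat, came from mice of this genotype, and the labels give neither age, sex nor the number of mice pooled. In all samples the tissue was crosslinked first with disuccinimidyl glutarate (DSG) and then with formaldehyde. The antibody was a custom guinea pig polyclonal against mouse BCL6. Each depot has 1 BCL6 library and 1 input library, and only the peak lists of the BCL6 libraries were analysed here. A peak list holds no expression values, so the adipocyte label could not be checked against marker genes.

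BCL6 is a transcriptional repressor with a BTB domain, which recruits corepressors, and zinc fingers, which bind DNA at sequences close to TTCCTAGAA. Most of the genes described here encode relatives of it. Zbtb genes encode repressors and activators with the same pairing of BTB domain and zinc fingers. Klf genes encode Krüppel-like factors, several of which act in fat cell differentiation, and Zfhx genes encode large proteins with zinc fingers and homeodomains. The Zfp genes are the most mixed group. Many encode repressors with a KRAB domain that silence retroelements and lie in arrays of near-identical copies, and others, such as Zfp36l1, encode RNA-binding proteins. Reads from such arrays can be placed on the wrong copy, and no source used here says how reads with several matches were treated.

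Sequence under the peaks could be read only just upstream of start sites, and these stretches are shown first because they can be set beside the known BCL6 site. The distal peaks, and the promoter peaks of Zfp157 and Zfp407, were not searched. The lines below give 30 bases of the strand on which the gene is read, 5′ to 3′, from the RefSeq promoter table (GRCm38.p6, the chromosomes of mm10). They come from the 4 start sites of that table whose 250 upstream bases hold the centre of a zinc finger gene peak. Capitals mark TTCNNNGAA, the palindromic core of the BCL6 site, or in Zfp113, where that core was not found, the shorter TTCCTAG.
Zfp719: gccatggcactTTCTAGGAAgaagttaaaa
Zfp282: tgtccaatgcaTTCCTAGAAgtaacagaaa
Zfp458: catttggagtgTTCCTGGAAgtcctttgca
Zfp113: agacctcccattTTCCTAGagagagcaagt

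These stretches lie at chr7:43579425-43579454 on the plus strand (Zfp719), chr6:47877317-47877346 on the plus strand (Zfp282), chr13:67269182-67269211 on the minus strand (Zfp458) and chr5:138155793-138155822 on the minus strand (Zfp113). Zfp282 holds TTCCTAGAA as written, and Zfp719 holds it on the opposite strand. In Zfp719, which had a peak in both lists, the middle of the core was 3 bp from the centre of the inguinal peak and 41 bp from that of the perigonadal peak. The core was 21 bp from the centre of the perigonadal peak in Zfp458, and 52 bp from the centre of the inguinal peak in Zfp282. In Zfp113, without the core, the middle of TTCCTAG was 11 bp from the centre of the perigonadal peak. The bases marked in capitals thus lay inside each peak. TTCNNNGAA, which reads the same on both strands, was found in the 250 upstream bases of 3 of these 4 start sites, against 17 of 83 (20.5%) other start sites under a peak centre of either list and 2302 of all 32817 start sites (7.01%). TTCCTAGAA, which is also a match to TTCNNNGAA, was found on either strand in 2 of the 4, in 6 of the 83 (7.23%) and in 114 of all (0.347%). TTCCTAG on either strand, a motif that TTCCTAGAA contains and that was chosen after the Zfp113 sequence was seen, was found in 3 of the 4, in 14 of the 83 (16.9%) and in 1268 of all (3.86%). With 4 start sites the Wilson 95% interval of the first share runs from 30.1 to 95.4%. A match is a description of the letters in the window. Over all start sites of the 4 gene families, with a peak or without, TTCNNNGAA was found in 57 of 464 (12.3%).

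The longer stretches under the Zfp719 and Zfp113 peaks show where the core sits in Zfp719 and the shorter TTCCTAG in Zfp113. They are the parts of these peaks that fall in the 250 bases before the start site, and capitals mark the same bases as above. Zfp719 is shown from chr7:43579336-43579544 on the plus strand, and Zfp113 from chr5:138155745-138155888 on the minus strand.
Zfp719: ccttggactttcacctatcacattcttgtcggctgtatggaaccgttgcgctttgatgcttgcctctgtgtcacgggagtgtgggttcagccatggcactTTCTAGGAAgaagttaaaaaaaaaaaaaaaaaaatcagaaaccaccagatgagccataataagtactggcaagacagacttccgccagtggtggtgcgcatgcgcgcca
Zfp113: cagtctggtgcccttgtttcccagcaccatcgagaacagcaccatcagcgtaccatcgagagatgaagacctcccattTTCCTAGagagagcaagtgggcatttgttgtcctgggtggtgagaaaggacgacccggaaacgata

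Heights are given as the authors' deposited peak scores, which are tags scaled for library size. Scores within a list are whole multiples of 1 step (0.752 for inguinal scores, 0.882 for perigonadal scores), so a score can be read as a number of tags. No source used here states the read totals behind the scaling. Library depth is therefore unknown, and scores of the 2 lists are set side by side without a difference being drawn. Intervals of a score are exact Poisson 95% intervals of its tags. They cover counting error only, since without molecular identifiers several reads can come from a single molecule. With 1 library per depot there was no replicate, so no test was made and no p-value is given. A peak that overlaps a peak of the other list by at least 1 bp is called shared. A missing partner means only that none was called, and the lists may differ in stringency: a false discovery rate is named in the inguinal header, and no threshold in the perigonadal one.

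At 5 zinc finger genes the lists shared a site: Zfp292, Zfp704, Zfp963, Zfhx3 and Zfp719. Of these, 4 sites were distal and among the taller peaks of both lists, and 1, on the Zfp719 promoter, had 11 and 10 tags. The tallest was near Zfp292, whose rat homologue was described as an activator of the growth hormone promoter. It scored 60.9 in inguinal fat (48.4 to 75.7), 81 tags and rank 7 of the list, and 74.1 in perigonadal fat (59.1 to 91.7), 84 tags and rank 10. The site lies upstream of the gene, 3.86 kb from the start site at chr4:34886706-34886908 in the inguinal list, in an annotated CpG island. The centres of the inguinal and perigonadal peaks lay 1 bp apart there. No other zinc finger gene peak in either list had the island annotation. Each peak carries a single detailed annotation, so an island under a peak labelled otherwise would not be seen. The share of islands among the other peaks is not given here.

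The next shared site lay in intron 1 of 8 of Zfp704, 36.2 kb into the gene (chr3:9573817-9574019). It scored 31.6 in inguinal fat (22.8 to 42.7) and 30.9 in perigonadal fat (21.5 to 42.9), and ranked 57 and 95. Intron 1 of 9 of Zfhx3, a homeodomain factor that acts in the circadian pacemaker of the brain, held a shared site 28.6 kb from the start site (chr8:108743183-108743385). It scored 15.8 in inguinal fat (9.78 to 24.1) and 16.7 in perigonadal fat (10.1 to 26.2). Zfp963 had its shared site in intron 1 of 3, 3.72 kb from the start site (chr8:69746137-69746339), with 15.8 in inguinal (9.78 to 24.1) and 15.9 in perigonadal fat (9.40 to 25.1). The Zfp963 site lies in an LTR element of the RMER15-int type, and 4 other genes of these families lie within 200 kb of the gene. These 3 intronic sites thus differed in height, with Zfp704 about as tall as the others together, while in each the centres of the peaks lay within 16 bp of each other.

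The shared site on a promoter was that of Zfp719, 143 bp upstream of the start site in the inguinal list (chr7:43579342-43579544) and 187 bp in the perigonadal list. It scored 8.27 in inguinal fat (4.13 to 14.8), 11 tags, and 8.82 in perigonadal fat (4.23 to 16.2), 10 tags. The inguinal height was 1 tag below the median of its list, 9.03, and the perigonadal height equalled the median of its list, 8.82. It was the only shared peak among the 11 inguinal and 31 perigonadal zinc finger gene peaks of up to 12 tags.

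**Figure D1:**
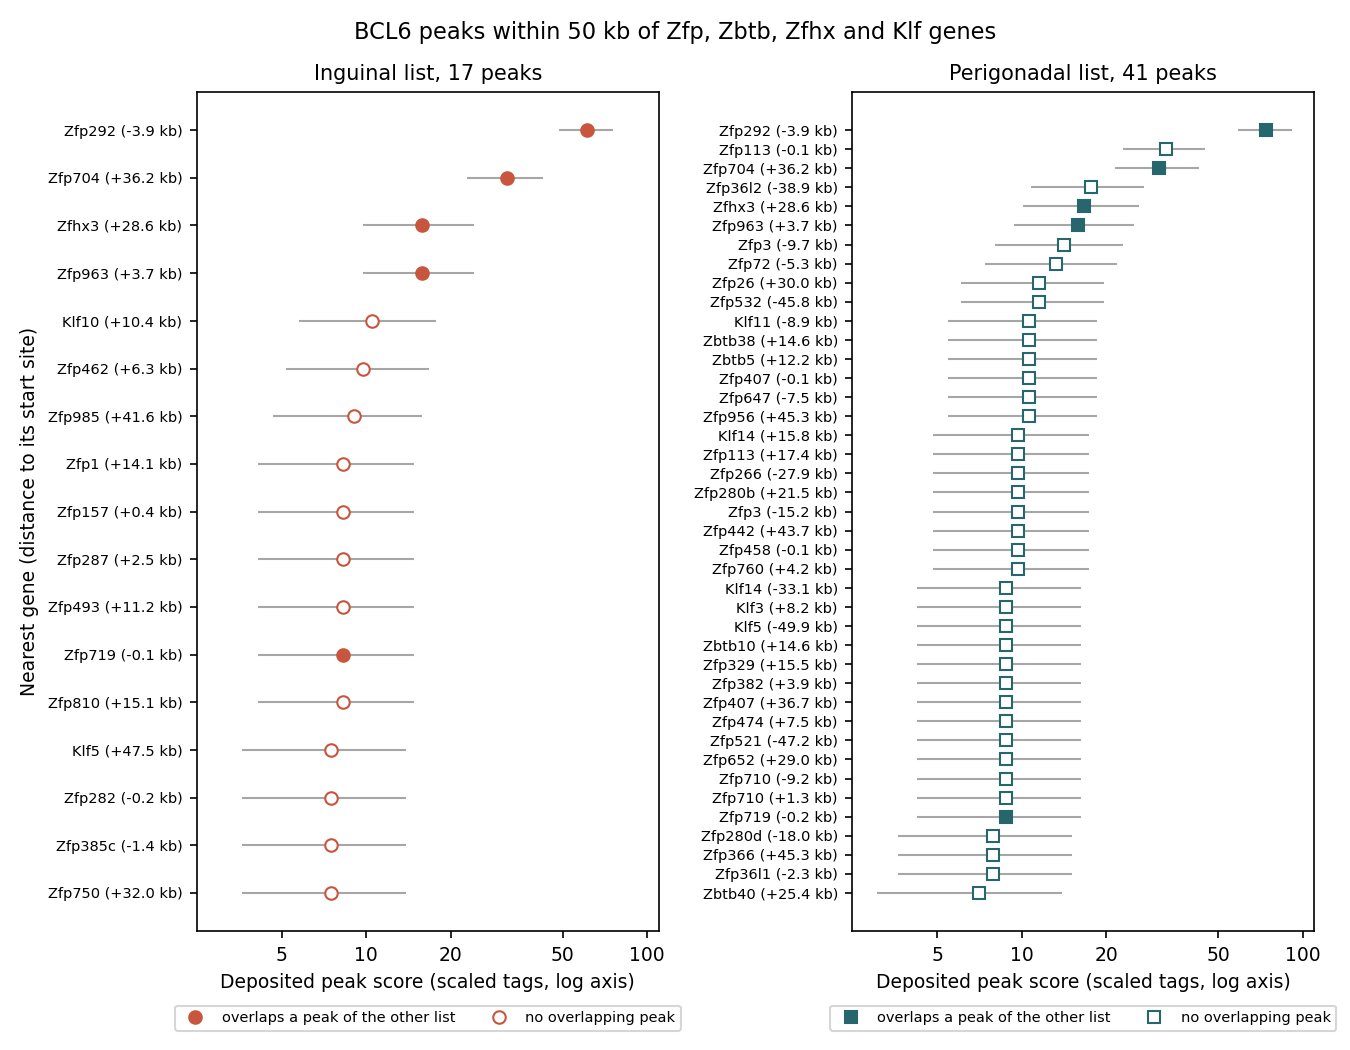
Deposited peak score (log axis) of each zinc finger gene peak in the inguinal list (left, 17 peaks) and the perigonadal list (right, 41 peaks), with exact Poisson 95% intervals of the tags as bars and the distance to the start site in brackets. Filled symbols overlap a peak of the other list: Zfp292, Zfp704, Zfhx3 and Zfp963 head the inguinal list, and Zfp719 stands at 8.27 and 8.82.

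Promoter peaks, those within 1 kb of a start site, were few. The inguinal list had 3 of 17 (17.6%, Wilson interval 6.19 to 41.0%), at Zfp719, Zfp157 and Zfp282, and the perigonadal list had 4 of 41 (9.76%, 3.86 to 22.5%), at Zfp113, Zfp407, Zfp458 and Zfp719. Among the other peaks within 50 kb the shares were 123 of 1126 (10.9%) and 242 of 2428 (9.97%), inside both intervals. The inguinal promoter peaks all rested on 10 or 11 tags. Zfp157 scored 8.27, in intron 1 of 4 and 439 bp downstream of the start site (chr5:138441814-138442016), and Zfp282 scored 7.52, 171 bp upstream (chr6:47877283-47877485).

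In the perigonadal list the promoter of Zfp113 stood out by height. Its peak, 52 bp upstream (chr5:138155704-138155888), scored 32.6 (23.0 to 45.0), 37 tags and rank 79. It was the tallest zinc finger gene peak of either list with no partner, and the nearest inguinal peak lay 285.9 kb away, at the promoter of Zfp157. A second, intergenic perigonadal peak 17.4 kb downstream of the Zfp113 start site scored 9.70. The promoter of Zfp407, which encodes a factor known to act on PPARγ target genes in adipocytes, scored 10.6 and that of Zfp458 scored 9.70. Intron 3 of 8 of Zfp407 held a further perigonadal peak of 8.82, 36.7 kb from the start site.

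Promoter and distal peaks had similar medians, in opposite order in the lists. The median score was 8.27 for promoter and 8.65 for distal peaks in the inguinal list, a difference of -0.38, and 10.2 for promoter and 9.70 for distal peaks in the perigonadal list, a difference of 0.45. Each difference is smaller than 1 tag. The tallest promoter peak was 8.27 and the tallest distal one 60.9 among the inguinal zinc finger gene peaks, and 32.6 and 74.1 among the perigonadal ones, maxima of 3 promoter and 14 distal, and of 4 promoter and 37 distal peaks. Over the other peaks within 50 kb the order was the reverse. In inguinal fat the maxima were 200.1 for 123 promoter and 82.7 for 1003 distal peaks. In perigonadal fat they were 260.1 for 242 promoter and 109.3 for 2186 distal peaks. A maximum tends to rise with the number of peaks, so 3 or 4 promoter peaks cannot show a different order for zinc finger genes. All 6 inguinal peaks of more than 12 tags were distal, and so were 9 of the 10 perigonadal ones, Zfp113 being the exception. Most other peaks of that height within 50 kb were distal too, 434 of 502 and 554 of 631.

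**Figure D2:**
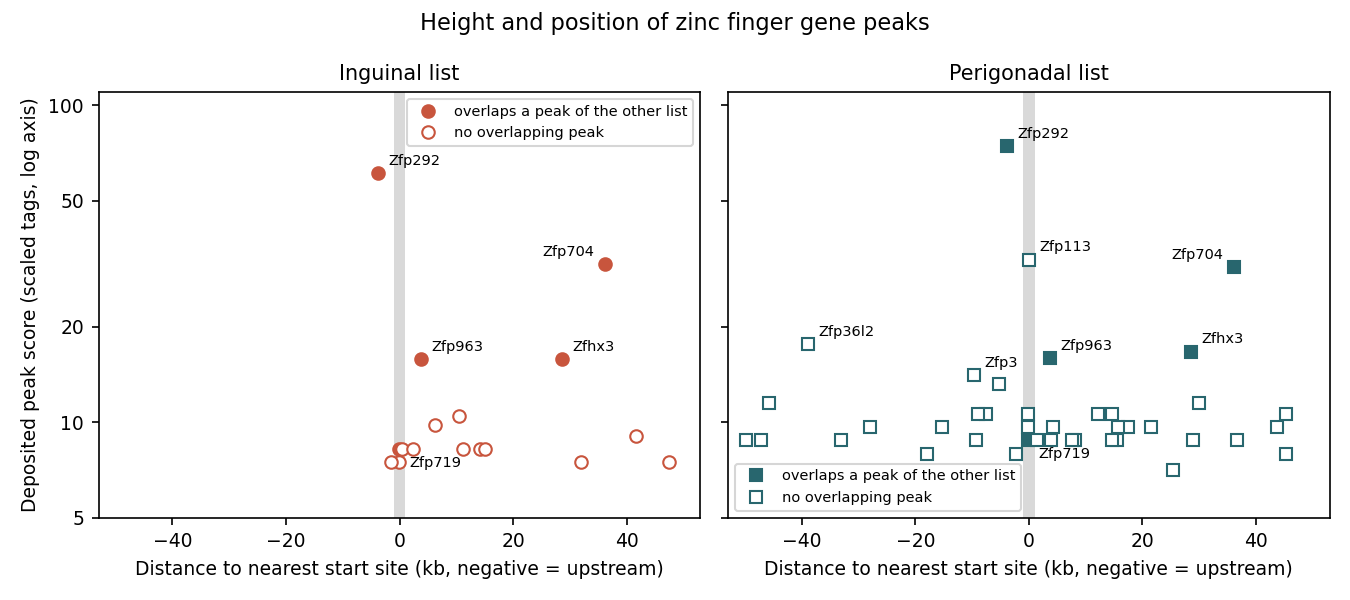
Deposited peak score (log axis) against distance to the nearest start site in kb, negative upstream, for the inguinal (left) and perigonadal (right) zinc finger gene peaks, with the promoter window of 1 kb shaded and shared peaks filled. The tall shared peaks (Zfp292, Zfp704, Zfp963, Zfhx3) lie outside the shaded window, and the tall perigonadal promoter peak at Zfp113 has no partner.

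Sharing did not separate promoter from distal peaks at these numbers. In the inguinal list 1 of 3 promoter peaks (33.3%, Wilson interval 6.15 to 79.2%) and 4 of 14 distal peaks (28.6%, 11.7 to 54.6%) were shared. In the perigonadal list 1 of 4 promoter peaks (25.0%, 4.56 to 69.9%) and 4 of 37 distal peaks (10.8%, 4.29 to 24.7%) were. The intervals overlap in both lists. Height divided the peaks more clearly: above 12 tags, partners were found for 4 of 6 inguinal peaks and 4 of 10 perigonadal ones, and of those with up to 12 tags 1 of 11 and 1 of 31. Other peaks within 50 kb of a start site were divided by height in the same way, with 289 of 502 and 272 of 631 shared above 12 tags, and 44 of 624 (7.05%) and 59 of 1797 (3.28%) at up to 12 tags. The zinc finger gene peaks lay near these shares. Of their distal peaks of up to 12 tags, 0 of 8 inguinal and 0 of 28 perigonadal ones were shared, against 41 of 569 (7.21%) and 52 of 1632 (3.19%) of the others, shares at which fewer than 1 would fall in either set.

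In sharing, the values of the other peaks lay inside the wide intervals of the zinc finger gene peaks. Shared were 5 of 17 inguinal peaks (29.4%, 13.3 to 53.1%), against 29.6% of the other 1126 peaks within 50 kb, and 5 of 41 perigonadal peaks (12.2%, 5.32 to 25.5%), against 13.6% of the other 2428. Above 12 tags the other peaks were shared in 57.6% (inguinal) and 43.1% (perigonadal) of cases, also inside the intervals of the zinc finger gene peaks (30.0 to 90.3% and 16.8 to 68.7%). Their median score was 8.27 against 9.03 for the other inguinal peaks, and 9.70 against 8.82 for the other perigonadal peaks. Each of these pairs differs by 1 tag.

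**Figure D3:**
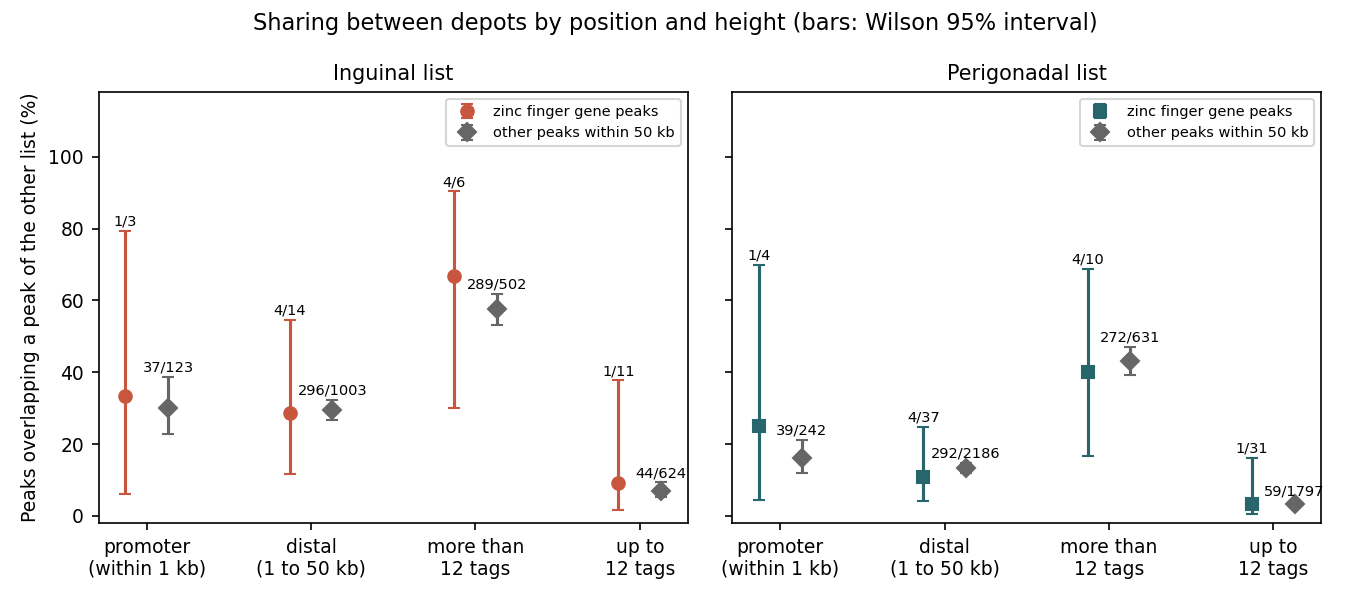
Share of peaks that overlap a peak of the other list, for zinc finger gene peaks (coloured) and the other peaks within 50 kb of a start site (grey), by position and by height, with Wilson 95% intervals as bars and the counts above them. In both lists the share is higher above 12 tags than at or below 12 tags, and each grey value lies inside the interval of its coloured neighbour.

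Peaks without a partner made up 12 inguinal and 36 perigonadal members. In the inguinal list the tallest lay 10.4 kb downstream of the start site of Klf10, a gene induced by TGF-β (chr15:38290193-38290395), with 10.5, or 14 tags. Intron 1 of 12 of Zfp462 followed with 9.78, and an intergenic site 41.6 kb from Zfp985, in a LINE element of the L1_Mus3 type, with 9.03. The next were equal at 8.27, at Zfp1, Zfp157, Zfp287, Zfp493 and Zfp810. All of these scores rest on 11 to 14 tags.

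In the perigonadal list Zfp113 was followed by a peak of 17.6 (10.8 to 27.2) assigned to Zfp36l2, which encodes an RNA-binding protein that promotes decay of AU-rich mRNAs (chr17:84226783-84226967). That site lies 38.9 kb upstream of Zfp36l2, in intron 34 of 37 of the gene Thada. Zfp3 had peaks of 14.1 and 9.70 at 9.74 and 15.2 kb upstream, Zfp72 one of 13.2 at 5.35 kb upstream, and Zfp532 and Zfp26 one of 11.5 each. The Zfp26 peak lies in the last exon of the gene, in its 3′ untranslated part, 30.0 kb from the start site. The remaining unshared perigonadal peaks scored from 7.05 at Zbtb40 to 10.6. Of the unshared peaks, 1 of 12 inguinal and 2 of 36 perigonadal ones had a peak of the other list within 50 kb. Within 10 kb 0 of either had one. Among the other unshared peaks within 50 kb of a start site, 216 of 793 (27.3%) and 266 of 2097 (12.7%) had one within 50 kb. Counts of 1 and 2 are too small to set the zinc finger gene peaks apart from the others in this.

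By family, Klf genes had 2 inguinal and 5 perigonadal peaks, all unshared. Klf5, which encodes a factor needed for fat cell differentiation in mice, was the only gene with a peak in both lists but no shared site. Its inguinal peak lay 47.5 kb downstream of the start site with 7.52 (10 tags), and its perigonadal peak 49.9 kb upstream, in the last intron of Pibf1, with 8.82 (10 tags). Klf11 had a perigonadal peak of 10.6 at 8.87 kb upstream. Klf14, whose human counterpart is linked to gene expression across fat tissue, had perigonadal peaks of 9.70 and 8.82, and Klf3, a repressor of fat cell differentiation, had one of 8.82 in intron 1 of 5. None of the perigonadal Klf peaks exceeded 12 tags.

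Zbtb genes, which pair a BTB domain with zinc fingers as Bcl6 does, had no inguinal peak and 4 perigonadal ones, none shared. By gene these were 0 and 4 of 41 (0% and 9.76%), against 4.25% and 8.89% of all protein-coding genes. BTB zinc finger genes with other names, such as Hic2, are outside this count. Zbtb38, which encodes a protein that binds methylated DNA, and Zbtb5 scored 10.6 each, both in introns. Zbtb10 scored 8.82 in exon 2 of 6 and Zbtb40 scored 7.05 in intron 1 of 18. These peaks rest on 8 to 12 tags.

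Counted by gene, 17 of the 457 protein-coding genes of the 4 families (3.72%, Wilson interval 2.34 to 5.88%) had an inguinal peak within 50 kb, and 36 of 457 (7.88%, 5.74 to 10.7%) a perigonadal one. Over all 21900 protein-coding genes of the RefSeq table the shares were 4.25% and 8.89%, so the families lay near the background. Peaks in both lists were found at 6 of 457 (1.31%), against 1.8% of all genes, and a shared peak at 5 of 457 (1.09%), against 1.29% of all genes. A peak in either list was found at 47 of 457 (10.3%), against 11.3%. The Zfp genes made up most of this, with 14 and 27 of 397, against 0 and 4 of 41 Zbtb, 1 and 1 of 3 Zfhx and 2 and 4 of 16 Klf genes.

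Of 25 zinc finger genes of these families with described roles in fat cells or their precursors, 2 had an inguinal peak (8.0%, Wilson interval 2.22 to 25.0%) and 8 a perigonadal one (32.0%, 17.2 to 51.6%), against 4.25% and 8.89% of all genes. Both inguinal genes, Zfhx3 and Klf5, were among the 8. The others were Klf3, Klf11, Klf14, Zfp36l1, Zfp36l2 and Zfp521, the last an inhibitor of commitment to the fat lineage, whose perigonadal peak scored 8.82 at 47.2 kb upstream. Zfp36l1, another gene for mRNA decay, had 7.93 at 2.25 kb upstream. Above 12 tags, 1 and 2 of the 25 had a peak (4.0% and 8.0%), Zfhx3 in both lists and Zfp36l2 in the perigonadal list, against 1.88% and 2.42% of all genes. These 25 genes occupy more of the genome: their median territory, the gene plus the way to the midpoints toward its neighbours at no more than 50 kb a side, was 102.6 kb, against 46.6 kb for all genes and 75.1 kb for all genes with a perigonadal peak. The part of territory in the count was not tested. The list was chosen with earlier results of these data known, and it is not complete. Zfp407, which encodes a factor known to act in adipocytes, is not on it.

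**Figure D4:**
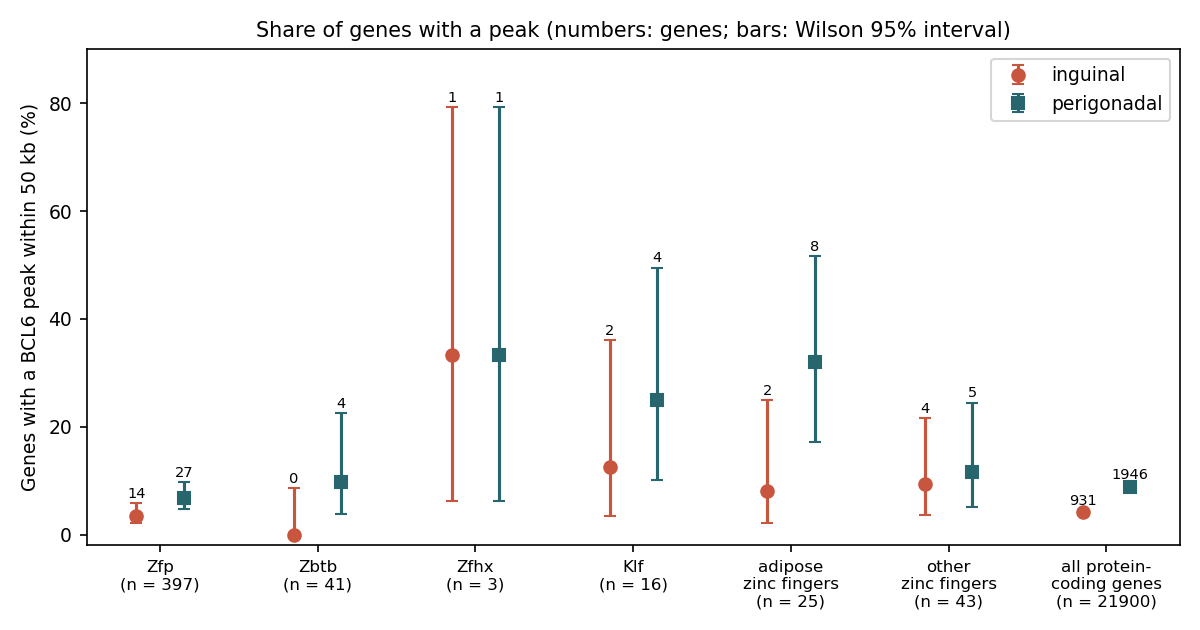
Share of genes with a BCL6 peak within 50 kb in the inguinal (circles) and perigonadal (squares) list, for the 4 gene families, the 2 lists of zinc finger genes and all protein-coding genes, with Wilson 95% intervals as bars and the number of genes with a peak above them. The Zfp genes (14 and 27 of 397) lie close to all genes, and the perigonadal share of the adipose zinc finger list (8 of 25) lies above that of all genes. That list holds genes also counted in the families, and it was chosen with earlier results of these data known.

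Where the peaks lay relative to genes was as mixed as in the rest of the lists. Introns held 9 of 17 inguinal peaks (52.9%) and 15 of 41 perigonadal peaks (36.6%), against 51.9% and 51.5% of the other peaks within 50 kb, and the perigonadal Wilson interval, 23.6 to 51.9%, includes 51.5%. Of the intronic peaks, 8 of 9 and 12 of 15 were in the gene they were assigned to, and 6 and 9 were in a first intron. Exons, 3′ untranslated parts and gene ends held 0 of 17 and 5 of 41 peaks (12.2%), against 5.51% and 7.33% of the other peaks, the perigonadal ones including exon 2 of 5 of Zfp382 and the 3′ untranslated part of Zfp442. Upstream of the start site lay 4 of 17 inguinal and 19 of 41 perigonadal peaks (23.5% and 46.3%), against 41.1% and 42.3% of the other peaks.

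Annotated repeats held 6 of 17 inguinal peaks (35.3%, 17.3 to 58.7%) and 9 of 41 perigonadal peaks (22.0%, 12 to 36.7%), against 19.3% and 22.0% of the other peaks within 50 kb. LTR elements, relics of retroviruses, held 3 inguinal and 5 perigonadal zinc finger gene peaks. They were of the types RMER15-int (Zfp963), ORR1F (Zfp1) and MTD-int (Zfp493) in the inguinal list, and RMER15-int (Zfp963), RLTR14 (Zfp956), ORR1D2 (Zfp3), ETnERV-int (Zfp280b) and MLT1F1 (Zfp652) in the perigonadal list. Except at Zfp963, the peaks in LTR elements were unshared and rested on 10 to 12 tags. The share of LTR elements among the other peaks is not given here, so the counts are not read as a trait of these genes.

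Genes of these families often lie beside each other: 259 of 457 (56.7%) have another within 200 kb. Of the 47 with a peak 20 did (42.6%, Wilson interval 29.5 to 56.7%), and of the 410 without a peak 239 (58.3%). The genes with a peak were also longer, with a median of 26.4 kb against 17.4 kb for those without one. Over all protein-coding genes the medians were 35.0 kb with and 15.7 kb without a peak. Longer genes hold more sequence, and the part of length in these values was not tested.

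The limit of 50 kb left out 18 inguinal and 31 perigonadal peaks whose nearest gene has a name of these families. Just inside it lay the Klf5 peaks, at 47.5 kb with 7.52 in the inguinal and at 49.9 kb with 8.82 in the perigonadal list. Just outside lay a peak of 9.78 at 52.4 kb from Zfp982 in the inguinal list, and peaks of 9.70 at 51.8 kb from Zfp536 and of 10.6 at 51.9 kb from Klf10 in the perigonadal list.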

How the data were processed

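Per the submitters' processing notes, the tools were Bowtie 1.2 and HOMER and the build was mm10. Per the file headers, each list is a HOMER annotation of peaks; no pooling is stated. The deposited peak score is a signal in scaled tags, and the deposited focus ratio is a fraction, from 0.6 to 0.923 in the inguinal and 0.526 to 0.929 in the perigonadal zinc finger gene peaks, which entered no comparison. The authors' annotation gave nearest genes and distances.

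Python 3.11.15 with pandas 2.3.3, SciPy 1.17.1 and matplotlib 3.10.9 computed score steps, overlaps, Wilson and Poisson intervals. Score steps and overlaps were tested on simulated data. All 58 peaks matched the RefSeq gene table (GRCm38.p6) by Entrez number. The motif search planned over peaks became a search of RefSeq promoter windows, since no genome was used here.

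Named were all shared sites, the 6 tallest unshared and 4 tallest promoter peaks per list, genes with 3 or more peaks over both lists (there was none), and members of the adipose list and of the Zbtb, Zfhx and Klf families with a peak. Others named were chosen after their values were seen. Members, lists and tests were chosen with earlier results of these data known. The labels name no animals, and each depot has 1 library.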

Additional observations from a re-analysis of the deposited data

How the results depend on the processing

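Across the results, most alternatives left values inside their counting intervals or, for counts, within 1.5 times: 57 of 75 did. Many of these intervals are wide, such as 6.15 to 79.2% for sharing of inguinal promoter peaks, so staying inside them shows little. For the median differences the interval covered the counting error of the promoter median only. Height made the largest number of changes. Above 12 tags the shared portion was 66.7% in the inguinal list and 40% in the perigonadal list, and among distal peaks 66.7% and 44.4%; 0 of 6 inguinal peaks were promoter peaks, and 0 of 1 perigonadal promoter peak was shared. Then 6 and 10 genes had a peak, and the perigonadal promoter median exceeded the distal one by 16.7, on the Zfp113 peak alone. With both lists held to the length of the shorter, equal scores ordered by position, 0 of 3 promoter peaks in either list were shared and 22 genes had a perigonadal peak. A promoter window of 5 kb took in 41.2% and 24.4% of peaks. A distance limit of 10 kb left 8 and 16 genes with a peak, 3 with a shared one, and a perigonadal promoter share of 23.5%. Each of these settings defines a smaller or wider set of peaks, and the cause of each change was not tested. The inguinal promoter share of shared peaks and the median difference had no value above 12 tags, where the inguinal list had 0 promoter peaks. The alternatives for the motif over whole peaks were not run; in the promoter windows TTCCNNGAA, chosen after seeing the data, was found at the same 3 of 4 start sites as TTCNNNGAA. No paired analysis was possible because each depot has 1 library. Limits: counts of 3 to 41 peaks give wide intervals, most peaks rest on 8 to 14 tags, and depth is unknown.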

Other observations

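Beyond 50 kb, a few tall peaks had a zinc finger gene as their nearest gene. The tallest, 80.9 kb downstream of the Zfp706 start site, was shared, with a score of 22.6 in inguinal fat and 45.0 in perigonadal fat. A site about 112.4 kb upstream of Zfp521 was also shared, with 12 and 19.4, and so was one about 120.5 kb upstream of Zfp648, with 9.78 and 12.3. These are the 3 shared sites among the 18 inguinal and 31 perigonadal peaks left out by distance. In the perigonadal list an unshared peak 108.8 kb from Zfp330 scored 21.2.

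Zinc finger factor genes outside the 4 families had peaks at 4 of 43 genes in the inguinal list (9.30%, Wilson interval 3.68 to 21.6%) and at 5 of 43 in the perigonadal list (11.6%, 5.07 to 24.5%), against 4.25% and 8.89% of all protein-coding genes. The median territory of the 43 genes was 71.9 kb. Hic2, which encodes a BTB zinc finger repressor, had a shared peak 1.93 kb into the gene that scored 15 (inguinal) and 12.3 (perigonadal), and a second perigonadal peak of 27.3 at 18.1 kb. Sp2 had a shared intronic peak with 11.3 and 9.70. The others were Egr3 and Sall1 in inguinal fat, and Egr2, Gli2 and Sp3 in perigonadal fat, with scores of 7.05 to 10.6.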
